A study of Mus musculus with 26 samples.

Results

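The genes described here encode the nuclear subunits of the 5 mitochondrial complexes of oxidative phosphorylation. They were chosen by symbol alone, as genes named Nduf with a subunit letter and number, Sdha to Sdhd, Uqcr, Cox4 to Cox8 or Atp5, leaving out pseudogenes marked -ps. This rule took 84 of the 52636 genes in the count tables. Of these, 36 belonged to complex I, 4 to complex II, 8 to complex III, 19 to complex IV and 17 to complex V. All but Cox6c2, annotated as a processed pseudogene, are annotated as protein-coding. They lie on 19 chromosomes, 3 of them on X.

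In oxidative phosphorylation, complexes I and II pass electrons from NADH and succinate to ubiquinone, complex III passes them to cytochrome c, and complex IV passes them to oxygen. Complexes I, III and IV pump protons as they do so, and complex V, the ATP synthase, uses the returning protons to make ATP. Most subunits are products of nuclear genes, while a small set, among them the catalytic core of complex IV, is read from the mitochondrial genome, so that both sets must be assembled together. Mast cells and their bone marrow progenitors both carry these complexes, and several complex IV subunits exist as alternative isoforms used in different tissues.

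Bulk RNA sequencing was done on 26 mouse libraries to ask what loss of neutrophil serine protease 4 (NSP4, encoded by Prss57) changes in the myeloid progenitors from which mast cells arise. Granulocyte–macrophage progenitors (GMPs; Lin-, SCA-1-, CD117+, CD34+, CD16/32 high) and common myeloid progenitors (CMPs; CD16/32 low) were sorted from bone marrow, with 4 wild-type and 4 Prss57-/- libraries of each. Bone marrow-derived mast cells (BMMCs), grown from GMPs in interleukin-3 and stem cell factor, gave 5 libraries of each genotype. The knockout is germline, so that every cell of the animal, the marrow environment included, lacks exon 2 of Prss57 (made in C57BL/6N embryonic stem cells), and wild-type controls were age-matched littermates. The study gives an age for mice used in flow cytometry, and ties none to the RNA samples. All GMP and CMP libraries were labelled female and sequenced in run R3722, and all BMMC libraries were labelled male and sequenced in run R3812, so in any comparison of BMMCs with GMPs the cell type, culture, sex and run cannot be told apart. The study describes the libraries of a group as biological replicates. No label ties a BMMC culture to an animal, so p-values there measure the spread between these cultures. In bulk RNA, fewer cells of a type and less RNA per cell cannot be told apart.

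Genes were counted from 35501671 to 51497962 reads in the GMP libraries, from 32078404 to 53264762 in the CMP libraries and from 18627626 to 28647216 in the BMMC libraries. Prss57 checked the labels: it averaged 145.2 normalised RPKM (reads per kilobase, scaled to depth by a size factor for each library) in wild-type GMPs against 0.132 in Prss57-/- GMPs, and 23.2 in wild-type CMPs against 1 read in each Prss57-/- CMP library. In wild-type BMMCs it was near background, at 2 to 27 reads a library, against 0 reads in each Prss57-/- BMMC library. The genotypes did not overlap there, but the check rests on few reads. Marker genes separated the progenitors: the summed level of 6 GMP genes (such as Mpo and Elane) was 29797 to 37616 in wild-type GMPs and 3833 to 8054 in wild-type CMPs. A summed list of mast cell genes reached 30858 to 46407 in wild-type BMMCs, with macrophage and dendritic cell genes at 1857 to 2619 beside it. Among the CMPs and BMMCs a pair of libraries stood apart. Prss57-/- CMP library 2 had the highest Pf4 of those CMPs (2561 normalised RPKM) and the most reads on the mitochondrial genome (0.576% of reads, others 0.245% to 0.376% in CMPs). Prss57-/- BMMC library 3 had macrophage and dendritic cell genes at 186, against 2402 to 2936 in the other Prss57-/- cultures, and mast cell genes at 74674. Results that rest on either library are given with and without it. Among GMPs, a summed list of neutrophil genes was at 5163 in Prss57-/- library 4. It was at 1467, 819 and 952 in Prss57-/- libraries 1, 2 and 3, and at 1513 to 3298 in wild-type GMPs.

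The 84 genes made up a different share of reads in each cell type. Of all reads counted on genes, they took 2.17% ± 0.375 (SD, n = 4) in wild-type GMPs, 3.03% ± 0.439 (n = 4) in wild-type CMPs and 0.731% ± 0.0476 (n = 5) in wild-type BMMCs. The wild-type GMP libraries ran from 1.89% to 2.72%, the wild-type CMP libraries from 2.39% to 3.37%, and the wild-type BMMC libraries from 0.673% to 0.795%. BMMCs therefore lay below every progenitor library, whereas wild-type GMPs and CMPs overlapped. The Prss57-/- values were 2.14% ± 0.423 in GMPs, 3.31% ± 1.12 in CMPs and 0.709% ± 0.0135 in BMMCs. The wide spread in Prss57-/- CMPs came from library 1 at 2.06% and library 2 at 4.77%, the lowest and highest CMP values of the series. Complex V took the largest share in each group (0.828% ± 0.110 in wild-type GMPs, 0.281% ± 0.0219 in wild-type BMMCs), followed by complex I (0.598% ± 0.119 and 0.197% ± 0.0132).

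**Figure D1:**
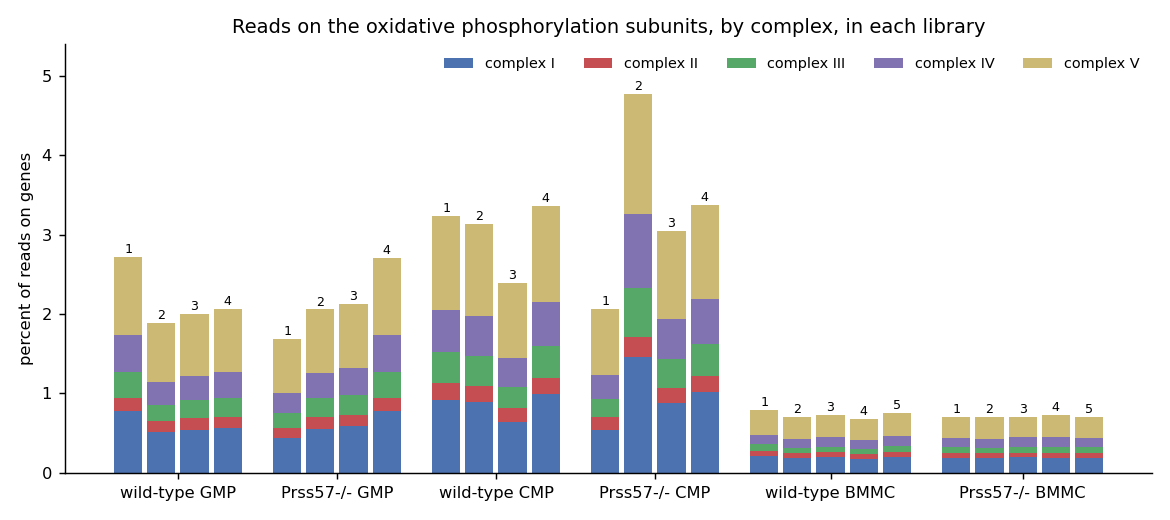
Share of all reads counted on genes (percent, vertical axis) taken by the 84 oxidative phosphorylation genes in each of the 26 libraries, by cell type and genotype, stacked by complex with replicate numbers above the bars. The 10 BMMC libraries sit between 0.673% and 0.795%, below all 16 progenitor libraries, and Prss57-/- CMP library 2 is the highest at 4.77%.

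Per length of transcript, the most abundant subunits in wild-type GMPs were Atp5e, a small subunit of the ATP synthase rotor stalk, at 1314 normalised RPKM, Cox4i1, the common form of complex IV subunit 4, at 1300, and Atp5b, the catalytic β subunit, at 1051. Atp5e was measured at 2047, 936, 1128 and 1145 in the 4 wild-type GMP libraries, and Cox4i1 at 1893, 1031, 1106 and 1169. For both genes library 1 was well above the other 3. At the low end of the genes tested stood Cox6a2 (0.797), Cox7c (1.19) and Atp5g1 (1.33). Cox7b2, Cox8b and Cox8c, the testis or muscle forms of complex IV subunits, had 0 reads in all 26 libraries, which allows up to 3 reads in a library. Together with Atp5g2, with 0 to 10 reads a library, they were too low to test, leaving 80 of 84 genes for the GMP and CMP comparisons and 78 for BMMCs, where Cox4i2 and Atp5l were also too low.

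The deposited counts used uniquely aligned 50-base reads, so copies elsewhere in the genome can lower the level of some subunits. For 18 of the 84 genes, more than 20% of the 50-base windows of their protein-coding transcripts also occurred in another gene, on either strand. This is not a count of genes with copies elsewhere. Windows shared with a gene overlapping at the same place were included, and reads there can still align uniquely. Uqcrc2 and Ndufb6, for example, shared windows only with Pdzd9 and Smim27, which are not annotated as pseudogenes. The share was 84.8% for Atp5l, 52.7% for Cox6c2 (all shared with Cox6c), 47.6% for Atp5o, 43.4% for Uqcrb, 38.3% for Atp5g2, 37.0% for Ndufb4 and 23.0% for Cox7c. Absolute levels of these genes are uncertain. The low Cox7c, Atp5l and Atp5g2 values in particular were measured on the part of each transcript that stayed unique. The few reads of Atp5g2 therefore do not show that the gene was silent.

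Subunit genes are short. The 80 genes tested had a median model length of 891.5 bases (231 to 4912), and 55% of them were under 1000 bases, against a median of 2708 bases and 15.3% under 1000 bases for the 16813 genes tested in any comparison. Libraries differed in how strongly reads favoured short genes. For each GMP and CMP library, the log2 ratio of its counts to the mean of those libraries was regressed on log2 gene length. The slope per doubling of length was -0.12, 0.18, 0.14 and 0.16 in wild-type GMPs, with library 1 the only negative one. In wild-type CMPs it was -0.14, -0.14, 0.13 and -0.17, with library 3 the only positive one, and in Prss57-/- CMPs it ran from -0.50 in library 2 to 0.21 in library 1. The libraries with the lowest slopes, in which short genes were over-represented, were those with the largest share of reads on oxidative phosphorylation genes, from 4.77% at a slope of -0.50 down to 1.68% at 0.28 in Prss57-/- GMP library 1. When all 26 libraries were set on one scale, BMMCs had slopes of 0.31 to 0.45 and progenitors -0.76 to 0.023, with no overlap. Length dependence thus moved with the cell type as well as with single libraries. Its part in the differences was measured only through the fits with offsets: every comparison below was also run with a length-dependent offset for each library that removes this trend across all genes.

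**Figure D2:**
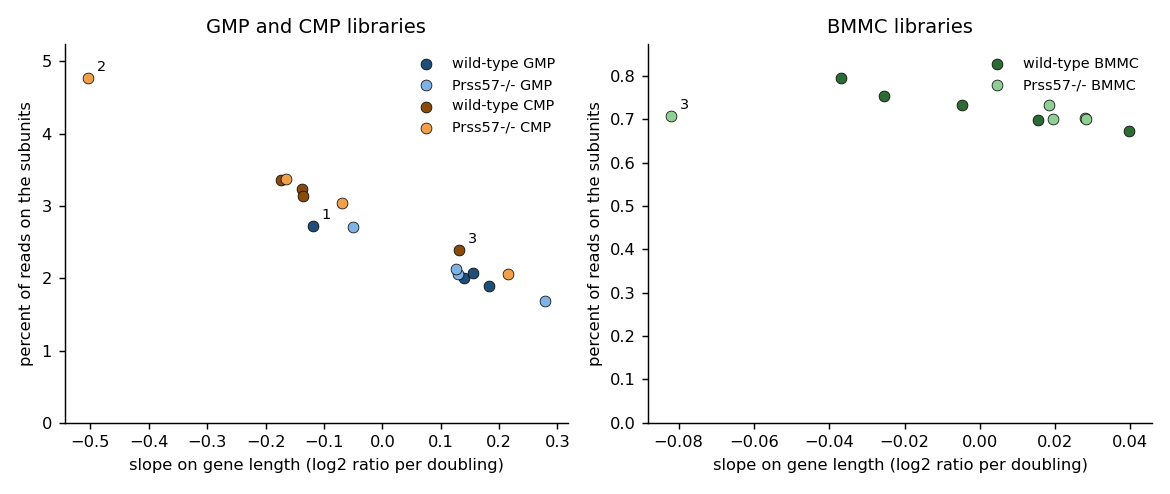
Share of reads on the 84 genes (percent, vertical axis) against the slope of log2 count ratio on log2 gene length (per doubling, horizontal axis) for the 16 GMP and CMP libraries (left) and the 10 BMMC libraries (right, slopes against the mean of BMMCs). In the progenitors the share falls from 4.77% at a slope of -0.50 to 1.68% at 0.28, in wild-type and Prss57-/- libraries of both cell types.

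Loss of Prss57 was first compared within each cell type. In GMPs, 0 of 80 oxidative phosphorylation genes passed the test (edgeR quasi-likelihood, adjusted p under 0.05 over all genes tested), where 0.0136% of all 14689 genes did. At an unadjusted p under 0.05 the count was also 0, and DESeq2 and limma voom called 0 as well. The median log2 fold change of the 80 genes was -0.03, against 0.001 for all genes. It was 0.16 without wild-type GMP library 1, 0.12 without Prss57-/- GMP library 1 and -0.23 without Prss57-/- GMP library 4, so its sign depended on single libraries. The genes with the smallest p were Cox7a1, the heart and muscle form of a complex IV subunit (log2 fold change -0.57, SE 0.37, unadjusted p = 0.154 by edgeR, n = 4 against 4), Atp5g1, a c-ring subunit of complex V (-0.23), and Ndufs1, the largest iron–sulfur subunit of complex I (0.09). Cox7a1 was measured at 2.14, 0.741, 1.81 and 1.81 normalised RPKM in wild-type GMPs and at 1.24, 0.956, 1.06 and 1.11 in Prss57-/- GMPs, and the groups overlapped.

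In CMPs, 0 of 80 genes passed, where 0.0067% of all 14916 genes did, and 0 had an unadjusted p under 0.05 by edgeR. DESeq2 and limma voom also called 0. The fold changes were nonetheless shifted together: 75 of 80 were positive, with a median of 0.35 against 0.03 for all genes. Genes under 1000 bases had a median of 0.44 (all genes of that length 0.28), those of 1000 to 1999 bases 0.29 (0.10), and those of 2000 bases and over 0.04 (-0.004). Without Prss57-/- CMP library 2 the median was -0.10 and 71 of 80 were negative. Without Prss57-/- CMP library 1 it was 0.56, with 11 genes at an edgeR unadjusted p under 0.05, where 561 of all 15121 genes were. With all libraries it was 0.10 with length offsets and 0.17 with library size alone. Cox7b, a small complex IV subunit, had the smallest p (log2 fold change 0.59, SE 0.46, unadjusted p = 0.233 by edgeR, n = 4 against 4), followed by Atp5j2 (0.53) and Uqcrb (0.43). Atp5j2, a membrane subunit of complex V, was measured at 183, 161, 107 and 224 normalised RPKM in wild-type CMPs and at 94.3, 457, 187 and 253 in Prss57-/- CMPs. Library 2 held the highest value and library 1 the lowest, and the groups overlapped.

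In BMMCs, 0 of 78 genes passed, and 0% of all 13938 genes did. Again DESeq2 and limma voom called 0. Cox6c (log2 fold change -0.16, SE 0.06, edgeR unadjusted p = 0.0264, adjusted p = 1.00) and Cox7c (0.44, SE 0.19, edgeR unadjusted p = 0.0446, adjusted p = 1.00), both small nuclear subunits of complex IV, had an unadjusted p below the threshold. Over all genes 332 did. The next smallest p was that of Ndufa7 (log2 fold change -0.11). Cox6c was measured at 81.7, 88.2, 93.5, 95.4 and 92.2 normalised RPKM in wild-type BMMCs and at 85.4, 81.0, 74.7, 79.2 and 85.6 in Prss57-/- BMMCs, with overlap. The median over the 78 genes was -0.03 (all genes 0.01), and complex I, with a median of -0.03, ran from -0.25 to 0.30. Without Prss57-/- BMMC library 3 the median was -0.04, and 5 of 78 genes reached an edgeR unadjusted p under 0.05. Of all 14162 genes 1031 did, so the count was near that background. The genotype effect also did not differ detectably between GMPs and CMPs: the interaction called 0 of 80 genes and 0% of all 15900 genes. By edgeR 0 of the 80 genes had an unadjusted interaction p under 0.05, and DESeq2 and limma voom called 0. Its median was -0.40 with all libraries (all genes -0.03), 0.06 without Prss57-/- CMP library 2 and -0.62 without Prss57-/- CMP library 1. Over all genes 169 had an unadjusted p under 0.05. Cox7a1 had the smallest p (difference of log2 fold changes -1.50, SE 0.93, unadjusted p = 0.128 by edgeR), followed by Ndufb4 (-0.93) and Ndufs1 (0.14).

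GMPs were next compared with CMPs, the population upstream of them in the myeloid tree. In wild-type cells, 3 of 80 genes were lower in GMPs and 0 were higher, where 12.5% of all genes were called lower and 15.4% higher. The 3 were Cox6b2, the testis form of complex IV subunit 6b (log2 fold change -1.18, SE 0.21, edgeR adjusted p = 0.000499), Cox6a2, the heart and muscle form of subunit 6a (-1.57, SE 0.55, edgeR adjusted p = 0.0423), and Atp5s, a factor associated with the ATP synthase (-0.67, SE 0.24, edgeR adjusted p = 0.0449). Cox6b2 was measured at 49.8, 32.6, 29.8 and 36.5 normalised RPKM in wild-type GMPs and at 104, 85.0, 69.0 and 89.0 in wild-type CMPs. Every CMP library lay above every GMP library. Cox6a2 was measured at 1.47, 0.194, 0.784 and 0.741 in GMPs and at 2.52, 3.43, 1.67 and 2.06 in CMPs, and Atp5s at 6.91, 5.44, 5.00 and 4.50 against 10.5, 9.97, 7.12 and 8.28. These groups did not overlap either. The 3 calls became 5 without wild-type GMP library 1 and 1 without library 2, 3 or 4 of the wild-type GMPs. Over all genes 2191 were lower without library 1, and 1539, 1444 and 1460 without library 2, 3 and 4. The Cox6a2 and Atp5s calls were lost in most fits that left out 1 library (edgeR adjusted p 0.0171 to 0.117 for Cox6a2 and 0.0292 to 0.126 for Atp5s), and Cox6a2 also under the replicate block (edgeR adjusted p = 0.0863).

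Most other subunits pointed the same way without passing the test. Of the 80 genes, 74 had a negative log2 fold change, with a median of -0.37 against -0.01 for all genes. The complexes were alike, with medians of -0.33 for complex I, -0.31 for II, -0.36 for III, -0.39 for IV and -0.41 for V. Their size tracked length, at -0.39 under 1000 bases (all genes of that length -0.32), -0.34 from 1000 to 1999 bases (-0.17) and -0.11 at 2000 bases and over (0.12). With length offsets 2857 of all 15900 genes were lower and 2677 higher. Among the 80 subunits the median became -0.10, with 7 lower and 2 higher. Those lower were Cox6b2 (-0.87), Cox6a2 (-1.31) and Atp5s (-0.55) again, with Sdhb (-0.31), Ndufa12 (-0.38), Ndufc2 (-0.34) and Uqcrc2 (-0.54), and those higher were Cox5a (0.28) and Cox8a (0.29; -0.06 without the offsets, not called). With library size alone as the scale, the median of all genes moved to -0.17, the counts of all genes called from 2448 higher and 1989 lower to 1426 and 3368, and 14 members were lower.

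In Prss57-/- cells, 26 of 80 genes were lower in GMPs than in CMPs and 0 were higher, where 18.8% of all genes were called lower and 16.9% higher. The median was -0.81, against -0.03 for all genes. Cox6b2 (-1.41), Cox6a2 (-1.74) and Atp5s (-0.89) were among the 26, the same 3 genes as in wild-type cells. The count moved with single libraries: it was 2 without Prss57-/- CMP library 2 (Cox6b2 at -1.17 and Atp5s at -0.53, median -0.34), 2 without Prss57-/- GMP library 1, 5 without GMP library 2 or 3, 41 without GMP library 4, 62 without CMP library 1 and 15 without CMP library 4. Over all genes, of 16209 to 16289 tested, 1872 were lower without CMP library 2 and 1939 without GMP library 1. The same counts were 2085 and 1976 without GMP library 2 and 3, and 2994 without GMP library 4. They were 4199 without CMP library 1 and 2581 without CMP library 4. Sdhd, a membrane anchor of complex II, was measured at 248, 324, 313 and 482 normalised RPKM in Prss57-/- GMPs and at 289, 1419, 541 and 617 in Prss57-/- CMPs. CMP library 2 was far above the others, library 1 lay within the GMP range, and the groups overlapped. With length offsets 18 of 80 genes were lower and 2 higher (Cox5a and Cox8a), with a median of -0.24. Of all 15900 genes 3589 were lower and 2793 higher in that fit, so the count of lower subunits was near that background.

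**Figure D3:**
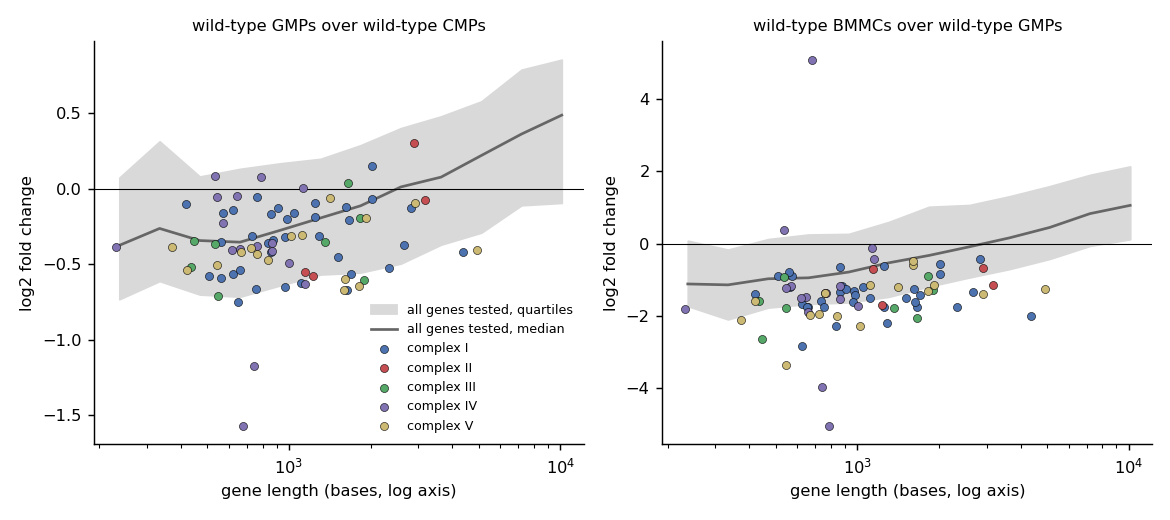
Log2 fold change (vertical axis) against gene-model length in bases (horizontal axis, log scale) for the oxidative phosphorylation genes (points coloured by complex), with the median and quartiles of all genes tested (line and band), for wild-type GMPs over CMPs (left) and wild-type BMMCs over GMPs (right). In wild-type BMMCs against GMPs the subunits with gene models of 2000 bases and over have a median of -1.20, while all genes of that model length have 0.29. A gene model can be longer than the transcript present, so the 2 sets may not be matched for transcript length.

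The largest difference was between BMMCs and GMPs. In wild-type cells, 76 of 80 genes were lower in BMMCs and 1 was higher, where 38.9% of all genes were called lower and 38.8% higher. Cox4i2 and Atp5l, too low to test among BMMCs alone, were among the 76. They passed the filter of this fit through their GMP reads, so their calls could hardly have gone the other way. The median log2 fold change was -1.39 for the 80 genes and 0.001 for all genes. In Prss57-/- cells, which share no library with the wild-type comparison, 74 were lower and 2 higher (37.9% and 39.7% of all genes), with a median of -1.38 against 0.04. All 74 were among the 76 lower in wild-type cells. In wild-type cells the 10 subunits with gene models of 2000 bases and over were all lower, with a median of -1.20. All genes of that model length had a median of 0.29. A gene model need not have the length of the transcript present: Ndufa11, in this class at 2661 bases, has 1092 bases of annotated exons. Ndufb2 and Ndufb8, at 4375 and 2329 bases, had 14.4 and 86.1 normalised RPKM in Prss57-/- CMP library 1. In library 2, which over-represented short genes, they had 89.5 and 511. Ndufs1 and Sdha, at 2819 and 2900 bases, had 44.4 and 139 in library 1 and 41.7 and 85.2 in library 2. The transcript lengths behind this class were not tested, so its median may not be matched for length. Below 1000 bases the medians were -1.52 for the subunits and -0.95 for all genes. With length offsets 60 genes were lower and 7 higher in wild-type cells (median -0.57, all genes 0.12), and 60 lower and 6 higher in Prss57-/- cells (median -0.59). Of all 15596 genes 5371 were lower and 6444 higher in wild-type cells, and 5196 and 6597 in Prss57-/- cells. With library size alone as the scale, the median of all genes moved to -0.20 in wild-type and -0.18 in Prss57-/- cells, and 77 and 76 members were lower. Over all genes 6793 and 6733 were lower.

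All 36 complex I genes were lower in wild-type BMMCs, with a median of -1.41. The deepest was Ndufa4, named for complex I and now assigned to complex IV, measured at 885, 434, 483 and 513 normalised RPKM in GMPs and at 88.6, 104, 80.0, 71.6 and 85.9 in BMMCs. The lowest GMP library was thus several-fold above the highest BMMC library (log2 fold change -2.84, SE 0.26, edgeR adjusted p = 1.85e-08). Ndufs6, a zinc-binding accessory subunit, was at 143, 76.0, 87.9 and 87.6 in GMPs and 24.6, 20.6, 23.6, 20.9 and 18.8 in BMMCs (-2.27, SE 0.22). The shallowest was Ndufs1, at 40.8, 40.6, 39.5 and 36.8 against 31.3, 29.5, 31.9, 30.2 and 32.0 (-0.43, SE 0.07, edgeR adjusted p = 9.69e-06). Even there the groups did not overlap. Ndufa2 (-0.89), Ndufa6 (-0.77) and Ndufa7 (-0.90), all accessory subunits of about 500 bases or slightly more, were lower in this fit and higher with length offsets (0.20, 0.33 and 0.23), so no direction can be given for them.

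Complex II, the succinate dehydrogenase, moved least in the fit without length offsets, with a median of -0.92 and 4 of 4 genes lower. Sdhd was measured at 524, 284, 301 and 316 normalised RPKM in wild-type GMPs and at 116, 109, 118, 116 and 120 in BMMCs (-1.71, SE 0.18, edgeR adjusted p = 9.51e-08). Sdhc, the other membrane anchor, fell from 96.1, 73.0, 80.2 and 77.8 to 40.7, 37.2, 39.9, 38.2 and 40.9 (-1.14, SE 0.10). Sdha, the flavoprotein that oxidises succinate, was at 121, 147, 154 and 151 in GMPs and at 92.5, 92.6, 95.7, 97.8 and 97.7 in BMMCs. Its difference was smaller (-0.68, SE 0.09, edgeR adjusted p = 2.98e-06), and its gene model is among the longest of the set at 2900 bases. With length offsets Sdhd was at -0.86 and Sdha at -0.57. The median of all 80 genes was then -0.57, and the complexes were not ranked in that fit.

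All 8 complex III genes were lower, with the lowest median of the 5 complexes in the fit without length offsets (-1.68). Uqcr11, a small accessory subunit, was measured at 593, 305, 369 and 349 normalised RPKM in wild-type GMPs and at 84.0, 57.7, 77.3, 58.8 and 67.8 in BMMCs (-2.63, SE 0.23, edgeR adjusted p = 1.51e-08). Uqcrc1, a core subunit, was at 415, 319, 344 and 344 in GMPs and at 100, 85.9, 94.5, 81.7 and 90.7 in BMMCs (-2.06, SE 0.11, edgeR adjusted p = 3.78e-11). Neither gene's groups overlapped. At 1653 bases Uqcrc1 is longer than most of the set, and it was still at -1.45 with length offsets. Uqcrh, the hinge protein, stood apart in Prss57-/- BMMC library 3 at 472, against 130 to 179 in the other cultures of that genotype.

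In complex V, 15 of 16 genes were lower, with a median of -1.39. Atp5a1, the α subunit, was measured at 764, 655, 669 and 693 normalised RPKM in wild-type GMPs and at 299, 268, 280, 271 and 286 in BMMCs. Atp5j2 was at 174, 105, 123 and 123 against 32.2, 32.1, 26.8, 22.0 and 30.1 (-2.28, SE 0.23, edgeR adjusted p = 7.70e-08), and Atp5e at 2047, 936, 1128 and 1145 against 474, 471, 455, 433 and 477 (-1.59, SE 0.27). In all 3 genes every BMMC library lay below every GMP library. Atp5l had the lowest fold change (-3.36, SE 0.52), but on 36 to 52 reads in a GMP library and 1 to 3 in a BMMC library, and with most of its transcript shared with other genes. Atp5s was the gene of this complex that did not pass (-0.48, SE 0.23, edgeR adjusted p = 0.0694).

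**Figure D4:**
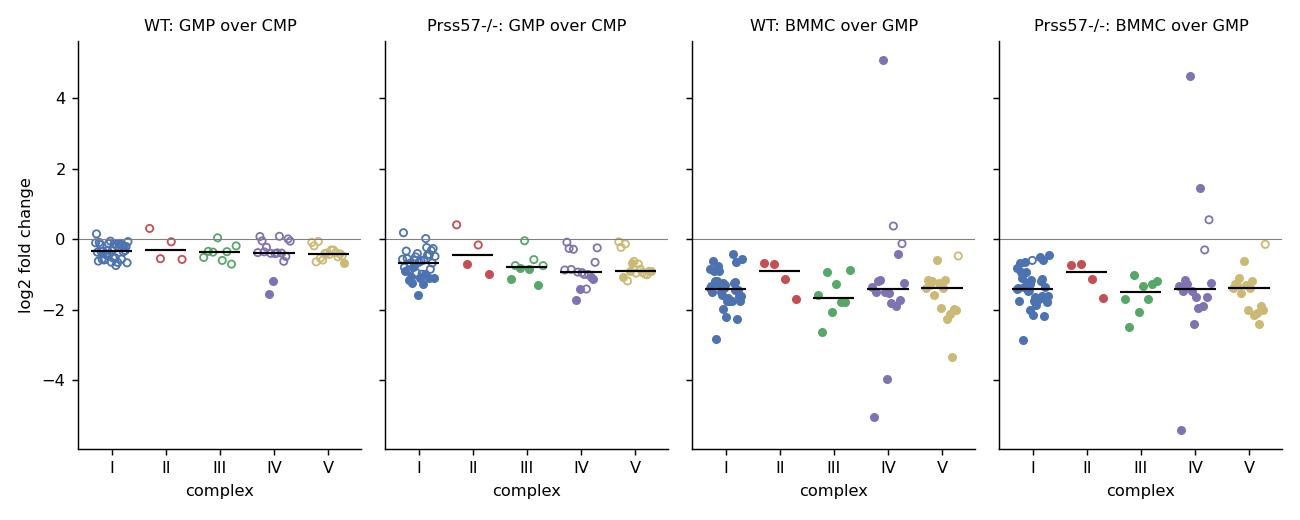
Log2 fold change of each oxidative phosphorylation gene (points) by complex, with the median of each complex. In wild-type BMMCs against GMPs the medians lie at -1.41, -0.92, -1.68, -1.43 and -1.39 for complexes I to V, and Cox6a2 in complex IV stands far above the rest at 5.09. The panels are GMPs over CMPs and BMMCs over GMPs in each genotype, and filled points passed the test.

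The subunits that moved together were looked at for shared promoter sequence, in 300-base windows from 250 bases before to 50 after the start of each gene. RefSeq windows were at hand for 66 of the 84 genes. The core of the nuclear respiratory factor 1 site, GCATGCGC, occurred in 15.2% of them, against 3.05% of 27025 genes. The ETS core CCGGAAG, bound by the GABP factor among others, was in 24.2% against 9.93%, and the YY1 core AAGATGGC in 13.6% against 3.19%. In contrast GGGCGG, the SP1 core, was about as common as elsewhere (39.4% and 38.2%), as was the E-box CACGTG (7.58% and 8.09%). TATAAA was in 10.6% and 15.7%, and the oestrogen-related receptor element TCAAGGTCA in 3.03%, that is 2 genes, and 0.47%. All were searched on both strands. The NRF1 core overlaps its own reverse complement, and such matches were merged. A match is a description of letters and not evidence of binding. Among the 63 tested genes with a window, the 28 with an NRF1, ETS or YY1 core had a median log2 fold change of -1.55 in wild-type BMMCs against GMPs, and the 35 with none had -1.38. By single core the medians went either way: -1.34 with and -1.49 without the NRF1 core, -1.60 and -1.43 for the ETS core, and -1.50 and -1.44 for the YY1 core. The windows of the 2 genes with the lowest fold change in each of complexes I, III and V are shown with those of the Cox6b1 and Cox6b2 pair, which differ in these cores; capitals mark NRF1, ETS or YY1 cores, and all are from RefSeq on GRCm38.p6, written 5′ to 3′ along the gene.
Ndufa4, chr6:11907401-11907700, minus strand: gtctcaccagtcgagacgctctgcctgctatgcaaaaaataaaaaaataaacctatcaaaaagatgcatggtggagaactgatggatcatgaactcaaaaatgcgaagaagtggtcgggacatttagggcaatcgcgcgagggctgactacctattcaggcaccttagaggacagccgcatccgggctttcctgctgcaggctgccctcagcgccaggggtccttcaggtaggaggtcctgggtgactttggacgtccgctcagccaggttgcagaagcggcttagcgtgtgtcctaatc
Ndufs6, chr13:73328433-73328732, minus strand: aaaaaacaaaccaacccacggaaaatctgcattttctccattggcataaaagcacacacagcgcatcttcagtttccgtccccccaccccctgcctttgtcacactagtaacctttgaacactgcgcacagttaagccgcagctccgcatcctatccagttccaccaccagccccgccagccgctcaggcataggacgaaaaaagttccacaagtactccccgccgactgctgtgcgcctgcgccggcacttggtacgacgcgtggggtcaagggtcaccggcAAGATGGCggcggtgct
Uqcr11, chr10:80406772-80407071, minus strand: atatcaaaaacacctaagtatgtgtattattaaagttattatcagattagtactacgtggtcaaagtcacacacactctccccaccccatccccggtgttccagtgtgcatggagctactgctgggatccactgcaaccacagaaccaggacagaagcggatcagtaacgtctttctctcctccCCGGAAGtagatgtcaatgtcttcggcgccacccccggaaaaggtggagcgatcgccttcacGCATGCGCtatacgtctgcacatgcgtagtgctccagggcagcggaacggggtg
Uqcrc1, chr9:108936398-108936697, plus strand: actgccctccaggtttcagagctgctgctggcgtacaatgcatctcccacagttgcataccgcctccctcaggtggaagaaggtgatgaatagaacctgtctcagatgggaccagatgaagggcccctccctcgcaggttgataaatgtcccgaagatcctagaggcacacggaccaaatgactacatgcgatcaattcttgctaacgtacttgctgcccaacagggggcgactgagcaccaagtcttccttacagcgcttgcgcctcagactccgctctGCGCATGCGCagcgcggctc
Atp5l, chr9:44920693-44920992, minus strand: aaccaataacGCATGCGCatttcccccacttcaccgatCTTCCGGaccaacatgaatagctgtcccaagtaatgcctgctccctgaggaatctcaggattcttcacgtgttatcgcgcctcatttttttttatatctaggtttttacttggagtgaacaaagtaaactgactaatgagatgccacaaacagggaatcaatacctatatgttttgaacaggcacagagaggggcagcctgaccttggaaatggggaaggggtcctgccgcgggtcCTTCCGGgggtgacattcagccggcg
Atp5j2, chr5:145191492-145191791, minus strand: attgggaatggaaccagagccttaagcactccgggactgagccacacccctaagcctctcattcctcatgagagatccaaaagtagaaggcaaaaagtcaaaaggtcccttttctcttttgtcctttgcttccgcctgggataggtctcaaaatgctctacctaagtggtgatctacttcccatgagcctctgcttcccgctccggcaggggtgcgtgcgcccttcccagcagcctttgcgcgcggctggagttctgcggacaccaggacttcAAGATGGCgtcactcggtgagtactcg
Cox6b1, chr7:30626065-30626364, minus strand: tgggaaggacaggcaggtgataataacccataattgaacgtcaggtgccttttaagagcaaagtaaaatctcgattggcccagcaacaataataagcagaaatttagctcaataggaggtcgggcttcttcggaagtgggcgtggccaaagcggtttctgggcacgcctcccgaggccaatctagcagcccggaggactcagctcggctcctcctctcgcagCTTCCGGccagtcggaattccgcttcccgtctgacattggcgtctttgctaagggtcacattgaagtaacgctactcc
Cox6b2, chr7:4753045-4753344, minus strand: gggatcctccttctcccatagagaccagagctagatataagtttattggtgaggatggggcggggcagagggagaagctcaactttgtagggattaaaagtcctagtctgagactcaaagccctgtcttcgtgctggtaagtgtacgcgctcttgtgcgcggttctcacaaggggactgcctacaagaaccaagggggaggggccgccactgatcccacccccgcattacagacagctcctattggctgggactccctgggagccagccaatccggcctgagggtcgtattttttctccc
Uqcr11 holds an ETS and an NRF1 core, Uqcrc1 an NRF1 core close to its start, Ndufs6 and Atp5j2 a YY1 core each shortly after theirs, and Cox6b1 an ETS core. Atp5l holds ETS and NRF1 cores. The Ndufa4 and Cox6b2 windows hold none of the 3.

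Complex IV was the most uneven, with 13 of 16 genes lower, 1 higher and a median of -1.43 in wild-type BMMCs, and its isoform pairs moved apart. Cox6a2 was the only member of the 80 called higher in wild-type BMMCs. It was measured at 1.47, 0.194, 0.784 and 0.741 normalised RPKM in wild-type GMPs and at 43.6, 23.0, 28.2, 18.7 and 28.7 in wild-type BMMCs, with no overlap (log2 fold change 5.09, SE 0.62, edgeR adjusted p = 8.47e-07). In Prss57-/- BMMCs it was at 22.0, 24.8, 3.87, 37.1 and 25.3, with library 3 the lowest (log2 fold change against Prss57-/- GMPs 4.62, and 4.91 without library 3). Its partner Cox6a1, the widely expressed form, was at 454, 333, 379 and 368 in GMPs and at 197, 183, 179, 168 and 181 in BMMCs, with no overlap (log2 fold change -1.17, SE 0.13, edgeR adjusted p = 2.11e-07). With length offsets that difference was -0.10 and was not called (edgeR adjusted p = 0.227), nor was it with the replicate block added (-0.08, edgeR adjusted p = 0.442). Cox6a2 thus made up 0.197% ± 0.108 (SD, n = 4) of summed Cox6a normalised RPKM in wild-type GMPs, 0.521% ± 0.167 in wild-type CMPs and 13.3% ± 3.11 (n = 5) in wild-type BMMCs, while Cox6a1 stayed the major form. In Prss57-/- BMMC library 3 the share was 2.32%, where macrophage and dendritic cell genes were also lowest and mast cell genes highest. The part of those cells in the Cox6a2 level was not tested.

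Cox6b2 went the other way. From 29.8 to 49.8 normalised RPKM in wild-type GMPs, it was at 2.24, 3.33, 1.95, 2.07 and 2.98 in wild-type BMMCs (log2 fold change -3.97, SE 0.75, edgeR adjusted p = 0.000112). Its share of the Cox6b pair was 6.49% ± 0.518 in wild-type GMPs, 10.8% ± 1.56 in CMPs and 1.24% ± 0.281 in BMMCs. In Prss57-/- BMMCs it was at 1.17, 1.98, 27.7, 2.22 and 1.18. Library 3, with 11.1% of the pair, lay close to the GMP range and far above the other 4 cultures. The log2 fold change against Prss57-/- GMPs was -2.41, and -4.43 without library 3. Against wild-type BMMCs it was 1.43 (SE 0.90, not called), and -0.61 without library 3. Cox4i2, the lung form of subunit 4, was low throughout, at 2.35 to 3.53 in wild-type GMPs, and fell to 8 reads over the 5 wild-type BMMC libraries against 487 over the 4 GMP libraries, 39.0-fold lower at equal depth (95% exact interval 19.7 to 91.0, counting error only). In Prss57-/- cells the pooled counts were 6 and 465 reads, 53.0-fold lower (24.2 to 145).

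In the Cox7a set the balance between forms shifted as well. Cox7a2, the widely expressed form, fell from 626, 307, 328 and 365 normalised RPKM in wild-type GMPs to 115, 115, 120, 107 and 126 in BMMCs. Cox7a2l, which joins complexes III and IV into supercomplexes, was at 193, 114, 115 and 114 in GMPs and at 91.6, 98.0, 102, 114 and 122 in BMMCs, and the groups overlapped. Its log2 fold change was -0.43 (SE 0.18, edgeR adjusted p = 0.0406), and 0.45 with length offsets, so its direction depended on the treatment of length. Without wild-type GMP library 1 it was -0.20 (edgeR adjusted p = 0.272), and the call was also lost without wild-type BMMC library 1, 2 or 3 and under the replicate block (edgeR adjusted p = 0.0578), with RLE factors (edgeR adjusted p = 0.0701), by DESeq2 (adjusted p = 0.0702) and by limma voom, the study's method (adjusted p = 0.052). Its share of the set was 25.0% ± 1.67 in GMPs, 28.0% ± 1.54 in CMPs and 47.0% ± 2.99 in BMMCs. Cox7a1 was at 2.66, 2.82, 2.18, 1.43 and 2.06 in wild-type BMMCs, overlapping the GMP range, and did not pass there (0.37, SE 0.37). With length offsets it was called higher in wild-type cells too (1.47, edgeR adjusted p = 0.00126), also with the replicate block added (1.54, edgeR adjusted p = 0.00331). In Prss57-/- BMMCs, at 2.88, 1.94, 6.66, 2.27 and 2.41, it was above every Prss57-/- GMP library and passed (1.46, SE 0.38, edgeR adjusted p = 0.00201), with 1.02 without library 3. Cox8a, the expressed form of its set, was lower in BMMCs (-1.24), at -0.16 with length offsets, and the call was lost when the replicate block was added to them (-0.16, edgeR adjusted p = 0.065), while Cox7c (-0.13) did not pass in either genotype.

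**Figure D5:**
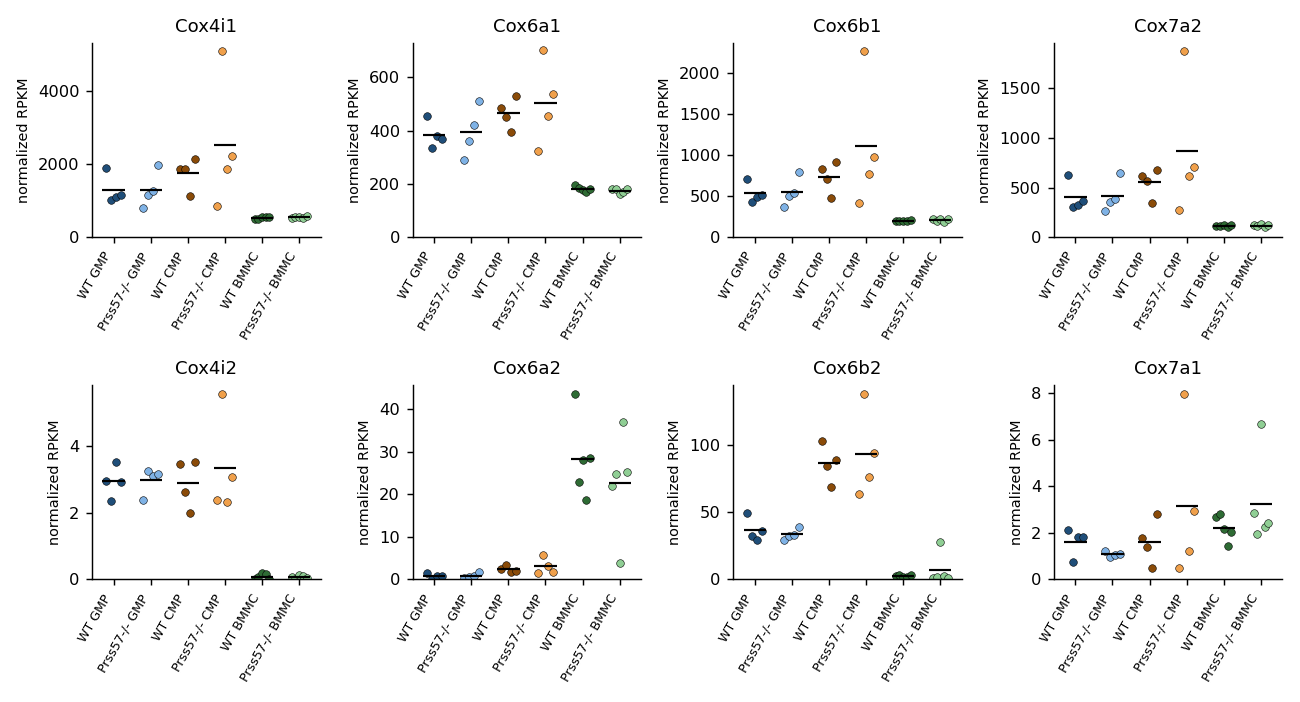
Normalised RPKM (vertical axis, linear, a scale for each gene) of complex IV isoforms in each library (points) by cell type and genotype, with group means as bars. Cox6a2 rises from 0.194 to 1.47 in wild-type GMPs to 18.7 to 43.6 in wild-type BMMCs. Prss57-/- BMMC library 3 is the lowest BMMC library for Cox6a2 (3.87) and stands apart for Cox6b2 (27.7).

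Genes that work with these subunits were compared from lists set by function. Of 13 mitochondrially encoded subunits, 11 could be tested. Sequence shared with other genes was not counted for them. Their levels, from uniquely aligned reads alone, may therefore also be too low. In wild-type BMMCs against GMPs 7 were higher and 1 lower, where 38.8% of all genes were called higher and 38.9% lower. Most nuclear subunits were lower. mt-Nd5, a proton-pumping subunit of complex I, rose from 37.1 ± 7.25 normalised RPKM (SD, n = 4) to 300.1 ± 53.7 (n = 5; log2 fold change 2.93, SE 0.25, edgeR adjusted p = 1.04e-08), mt-Nd6 by 2.52 and mt-Nd4 by 1.77 on the log2 scale. mt-Nd3 was lower (-1.73), on few reads. The counts were 5 higher and 3 lower with library size alone, and 10 and 0 with length offsets. In Prss57-/- cells 5 were higher and 3 lower, where 39.7% and 37.9% of all genes were, so these counts were near that background. The share of reads on the mitochondrial genome as a whole was 0.156% to 0.341% in GMPs and 0.260% to 0.386% in BMMCs. Those ranges overlapped. Between GMPs and CMPs 0 mitochondrially encoded genes passed in wild-type cells by edgeR, 3 having an unadjusted p under 0.05 and DESeq2 and limma voom each calling 1 lower, and mt-Nd1 was lower in Prss57-/- cells.

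Nuclear subunits, carriers and an inhibitor with other names followed the members: 5 of 5 tested were lower in BMMCs than in GMPs in both genotypes. Of all genes 38.9% were lower in wild-type and 37.9% in Prss57-/- cells. Cyc1, the cytochrome c1 subunit of complex III, was at 246.5 ± 40.1 normalised RPKM in wild-type GMPs and 68.7 ± 7.24 in BMMCs (log2 fold change -1.93, SE 0.14, edgeR adjusted p = 1.42e-09), Usmg5 was at -1.22 and Atpif1, the ATP synthase inhibitor, at -0.99. Of 46 assembly factors, 37 were lower and 3 higher in wild-type BMMCs, with a median of -0.98. Ndufaf6 (-2.80) and Ndufaf2 (-1.78), which help to build complex I, and Bcs1l (-2.30), which inserts the iron–sulfur protein into complex III, were lowest. Bcs1l is 2018 bases long and went from 27.8 ± 2.14 to 5.99 ± 0.578. Between wild-type GMPs and CMPs 5 assembly factors were lower, among them Tmem70 (-0.97), Cox11 (-0.63) and Cox20 (-0.59), and 2 were higher, against 12.5% of all genes lower and 15.4% higher, so the count was near that background. Of 13 regulators of mitochondrial biogenesis, 6 were lower and 1 higher in wild-type BMMCs, where 38.9% and 38.8% of all genes were, so the count of lower genes was near that background. Myc fell by 1.74 and Tfam, which packages and transcribes mitochondrial DNA, fell by 1.08 on the log2 scale, while Gabpb2 rose by 0.91. Tfam was at 17.2 ± 2.93 normalised RPKM in wild-type GMPs, 29.0 ± 3.70 in CMPs and 8.66 ± 0.413 in BMMCs. It was also lower in wild-type GMPs than in CMPs (-0.71, SE 0.20, edgeR adjusted p = 0.0171), with Gabpb1 (-0.50). Between genotypes edgeR called 0 genes of these lists in each of the 3 cell types, as did DESeq2 and limma voom. At an unadjusted p under 0.05 stood 1 mitochondrially encoded gene in GMPs and 1 in BMMCs, and 2 assembly factors in BMMCs.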

How the data were processed

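Per the study's methods, total RNA libraries were sequenced as single-end 50-base reads and the authors aligned them to GRCm38 with GSNAP, then counted uniquely aligned reads in exons. The annotation release is not given in the sources used here, nor is the use of strand in counting. The deposited files hold counts per gene and RPKM values that the authors divided by a size factor (normalised RPKM), from which gene-model lengths were recovered. No library pair of a group agreed within sampling noise (chi-square per degree of freedom 9.61 to 856 over 44 pairs).

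Counts were tested with edgeR 4.0.16 (quasi-likelihood, TMM, filterByExpr) in R 4.3.3, within GMPs, CMPs and BMMCs, and jointly for GMPs with CMPs and GMPs with BMMCs. A gene was called at a Benjamini-Hochberg adjusted p under 0.05 over all genes tested. Levels are the deposited normalised RPKM. Shares of reads are counts on the 84 genes over all counts on genes. Alternatives were RLE factors, library size alone, no filter, at least 10 counts in every library, DESeq2 1.42.0, limma 3.58.1 voom (the study's method), a replicate block, length offsets (lowess, span 0.3, on genes with a mean of at least 100 counts), an adjusted p under 0.01 with at least a 2-fold change, and leaving out each library. Scripts were tested on simulated counts.

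The members, the lists of related genes and the tests were chosen with earlier results of these data known. Named genes were the isoform sets, in each complex the 2 genes called higher with the highest and the 2 called lower with the lowest fold change, the 3 smallest p in each genotype comparison and in the interaction, the 3 highest and lowest levels in wild-type GMPs, and the 3 largest called changes of each list. Genes named for a change with length offsets (Cox5a, Ndufa2, Ndufa6, Ndufa7, Ndufa12, Ndufc2, Sdhb, Uqcrc2), and Sdha, Atp5a1, Uqcrh, Ndufb2 and Ndufb8, were chosen after their values were seen. Promoter windows are RefSeq's on GRCm38.p6. Intervals cover counting error only.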

Additional observations from a re-analysis of the deposited data

Results flagged for a closer look

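In groups of 4 or 5 libraries, the highest or lowest was compared with the rest by Dixon's test, which chance alone flags in about 1 in 20 groups. Of 126 groups examined 18 had a library standing apart, and most fell in 3 libraries. Wild-type GMP library 1 was apart in its slope on gene length (-0.12, nearest 0.14) and in Cox4i1 (1893 normalised RPKM), Cox7a2l (193), Uqcrh (796) and Sdhd (524), all high. Wild-type CMP library 3 was apart in slope (0.13, nearest -0.14), with Cox7a2l (138), Atp5b (1066) and Sdhd (370) low and Sdha (143) high. Prss57-/- BMMC library 3 was apart in slope (-0.082, nearest 0.018), with Cox6b2 (27.7), Cox7a1 (6.66), Uqcrh (472) and Atp5s (8.88) high and Sdha (75.8) low. Elsewhere Prss57-/- BMMC library 4 had the highest share of reads on these genes (0.733%, nearest 0.708%), and Prss57-/- GMP library 1 the lowest Cox4i2 (2.38, nearest 3.10). The causes were not tested.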

How the results depend on the processing

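Counts of called genes moved by more than 1.5 times as follows. Wild-type GMPs against CMPs (3 lower, 0 higher): 14 lower with library size alone, 7 lower and 2 higher with length offsets, 6 and 3 with length offsets and the replicate block, and 1 lower at the stricter rule. Prss57-/- GMPs against CMPs (26 lower, 0 higher): 17 lower without a filter, 41 lower and 1 higher by DESeq2, 9 and 1 by voom, 9 lower under the replicate block, 2 higher with length offsets, 13 lower and 3 higher with both, 1 higher at 10 counts in every library, and 1 lower at the stricter rule. BMMCs against GMPs, higher: in wild-type cells (1) 0 at 10 counts in every library, 7 with length offsets and 4 with the block added; in Prss57-/- cells (2) 1, 6 and 5. Leaving out each library gave 0 to 0 in the genotype comparisons and the interaction, 1 to 5 lower and 0 to 0 higher for wild-type GMPs against CMPs, 2 to 62 and 0 to 1 for Prss57-/-, 75 to 76 and 1 to 1 for wild-type BMMCs against GMPs, and 72 to 77 and 2 to 3 for Prss57-/-. With length offsets Cox7a2l (BMMCs against GMPs) reversed to 0.4547, and 0.4055 with the block, and Cox8a (GMPs against CMPs) to 0.2880 and 0.2901. Of the values of single genes under all alternatives, 813 kept their direction and side of the threshold, 24 lost the call, 4 gained it and 4 reversed. Same-numbered libraries were not shown to be paired. Their deviations correlated from 0.0142 to 0.224 in wild-type and from 0.0256 to 0.459 in Prss57-/- GMPs and CMPs, all positive. Differently numbered pairs of GMPs and CMPs ran from -0.46 to 0.25 in wild-type and from -0.42 to 0.33 in Prss57-/- cells. Between genotypes in GMPs the same-numbered pairs ran from -0.31 to 0.18. The cause of these changes was not tested beyond length and the libraries named.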
